A study of Arabidopsis thaliana with 12 samples.

Results

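The genes described here are 5 Arabidopsis thaliana nuclear genes of organelle protein synthesis and thylakoid protein insertion, on an array of 3439 probes. They were chosen by locus: AT5G65220, AT4G01310 and AT1G24240, which encode organelle ribosomal proteins of the L29, L5 and L19 families, AT1G12800, which encodes a chloroplast RNA-binding protein with an S1 domain, and SECE1 (AT4G14870), a subunit of the thylakoid Sec translocase. The choice was made with earlier results of these data known. Each of the 5 had exactly 1 probe naming it alone, among 692 probes that name 1 gene, and all 5 probes had a value above 0 in all 12 samples. Total RNA came from wild-type plants of the ecotype Wassilevskija, with 6 samples of plants given water and 6 of plants kept for 30 min in MS (a salt medium for plant culture) with 60 mM sucrose. The effects of the salts and of the sucrose cannot be told apart. The tissue and the duration of the water treatment are not in the labels. Nor do the labels say that the samples are separate cultures, and the p-values below describe sample-to-sample spread that could be technical.

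Plastids carry their own bacterial-type ribosomes, which translate the genes of the plastid genome, many of them for subunits of the photosynthetic complexes. Most proteins of the large subunit of that ribosome, L5 and L29 among them, are encoded in the nucleus and imported. L5 sits at the binding site of 5S ribosomal RNA, and L29 lies near the exit of the tunnel through which the new chain leaves. S1 domains bind RNA and occur in ribosomal, translation and RNA-processing proteins. SECE1 and the channel protein SCY1 form the plastid Sec translocase, which moves proteins into or across the thylakoid membrane with the motor SECA1.

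The deposited values were intensities on a linear scale of 0 to 100 whose unit is unknown. The median intensity of an array was 0.171 to 0.188 in the water samples, against 0.422 to 0.459 in the sucrose samples. Deposited values of a typical probe were therefore higher in sucrose medium, and differences below are given after quantile normalisation, that is against the rest of the array, unless stated otherwise. Samples 1 and 2, 3 and 4, and 5 and 6 of a group were mostly closest to each other (Spearman correlation 0.959 to 0.974 in water against 0.933 to 0.961 for other pairs, and 0.977 to 0.99 against 0.937 to 0.971 in sucrose medium). Whether the 2 samples of such a set are repeat measurements is not stated by the labels.

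After quantile normalisation AT1G12800 and AT5G65220 were higher in sucrose medium, AT4G01310 was slightly lower, and SECE1 and AT1G24240 did not pass the test. Of the 5 genes 2 passed as higher and 1 as lower, by limma with a Benjamini-Hochberg adjusted p under 0.05. Over all 2915 probes tested 64.4% passed, 31.5% as higher and 32.9% as lower, so the count of 3 of 5 is near the share over all probes. Once the sample number entered the fit as a fixed block, all 5 genes passed, 3 as higher and 2 as lower, where 69.4% of probes did. With it as a random block 3 of 5 passed, against 70.4%. In the deposited values 4 of the 5 genes were higher in sucrose medium without overlap between the groups, as were 64.5% of 2805 probes. After quantile normalisation 2 of the 5 were, against 20.9% of probes. The median log2 fold change over all probes tested was -0.03, and that of the 5 genes ran from -1.32 to 2.85.

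**Figure D1:**
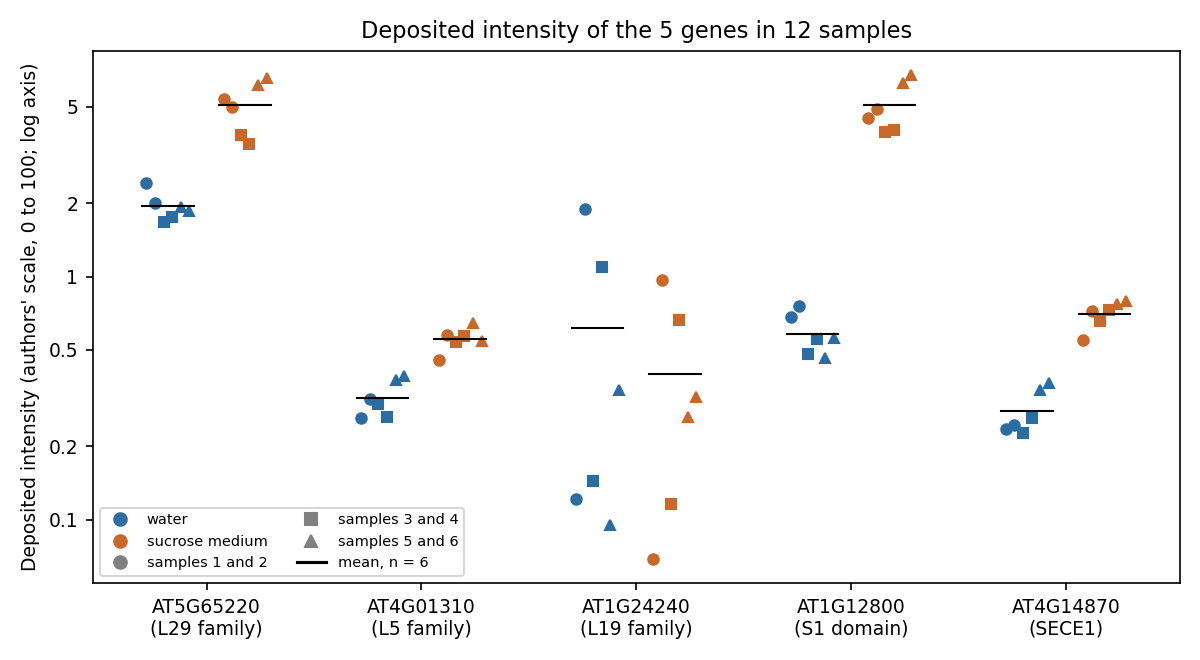
Deposited intensity (log axis) of the 5 genes in every sample, with water in blue, sucrose medium in orange, symbols for the sets of 2 samples and lines for the group means of 6. AT1G12800 went from 0.463 to 0.757 in water up to 3.94 to 6.75 in sucrose medium, whereas the values of AT1G24240 spread from 0.0689 to 1.89 and its groups overlap.

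AT1G12800, the S1-domain gene, had the largest difference of the 5. Its deposited intensities in water were 0.682, 0.757, 0.481, 0.555, 0.463 and 0.56 in samples 1 to 6. In sucrose medium they were 4.48, 4.89, 3.94, 4.02, 6.26 and 6.75. Every sucrose sample was above every water sample, with the lowest sucrose value still several times the highest water value, and samples 5 and 6 were the highest in sucrose medium. The probe moved within its array from a percentile of 77.5 to 86.3 among all probes in water to 97.4 to 98.2 in sucrose medium. The log2 fold change was 2.85 ± 0.15 (SE), from a log2 intensity of -0.40 ± 0.21 to 2.45 ± 0.32 (SD, n = 6 each; adjusted p by limma 1.84e-08), which is 7.21-fold. Of the probes tested, 99.7% had a lower log2 fold change. The difference was present within each set of samples, at 2.49 in samples 1 and 2, 2.63 in samples 3 and 4, and 3.43 in samples 5 and 6. A further probe, listed for both AT1G12800 and AT3G23700, had a log2 fold change of only 0.38 (adjusted p by limma 0.00272).

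AT5G65220, of the L29 family, was already bright in water. Its deposited intensities there were 2.42, 2.01, 1.68, 1.75, 1.94 and 1.86 in samples 1 to 6. In sucrose medium they were 5.39, 4.96, 3.82, 3.52, 6.11 and 6.56. The groups did not overlap, and samples 3 and 4 were the lowest in sucrose medium and samples 5 and 6 the highest, as for AT1G12800. Within the array the probe lay at percentiles of 93.8 to 95.3 in water, against 97.0 to 98.2 in sucrose medium. The log2 fold change was 1.46 ± 0.15 (SE), from 0.97 ± 0.12 to 2.43 ± 0.36 (SD, n = 6 each; adjusted p by limma 4.06e-06), which is 2.75-fold, and 95.5% of probes had a lower log2 fold change. By sets of samples it was 1.35, 1.15 and 1.88. With median centring of each array the log2 fold change was 0.10 and no longer passed (adjusted p = 0.595), so this call depends on the scaling. On the deposited scale the ratio of means was 2.60, close to the shift of the array medians and to the 2.53 of SECE1. Without scaling the log2 fold change was 1.35 for both genes, against a median of 1.09 over all probes. Quantile normalisation left AT5G65220 near that value, at 1.46, but brought the dimmer SECE1 to 0.20. The shift of the array medians therefore need not hold at the brightness of AT5G65220.

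AT4G01310, of the L5 family, differed in the other direction and by less. Its deposited intensities in water were 0.261, 0.315, 0.299, 0.265, 0.374 and 0.388. In sucrose medium they were 0.455, 0.576, 0.536, 0.567, 0.647 and 0.542. On the deposited scale every sucrose sample was above every water sample, by a ratio of means of 1.75, which is less than the rise of a typical probe. Within its array the probe sat lower in sucrose medium, at percentiles of 52.6 to 64.7 against 64.5 to 73.0 in water. The log2 fold change was -0.38 ± 0.10 (SE), from -1.10 ± 0.16 to -1.49 ± 0.16 (SD, n = 6 each; limma, adjusted p = 0.00455), and it was below 0 in 6 of 6 same-numbered pairs. Without scaling it was 0.81 (adjusted p = 3.38e-05), against a median of 1.09 for all probes, and a straight-line scaling gave -0.039 (adjusted p = 0.842). The statement that AT4G01310 was lower therefore holds only relative to the other probes, and not with the straight-line scaling.

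**Figure D2:**
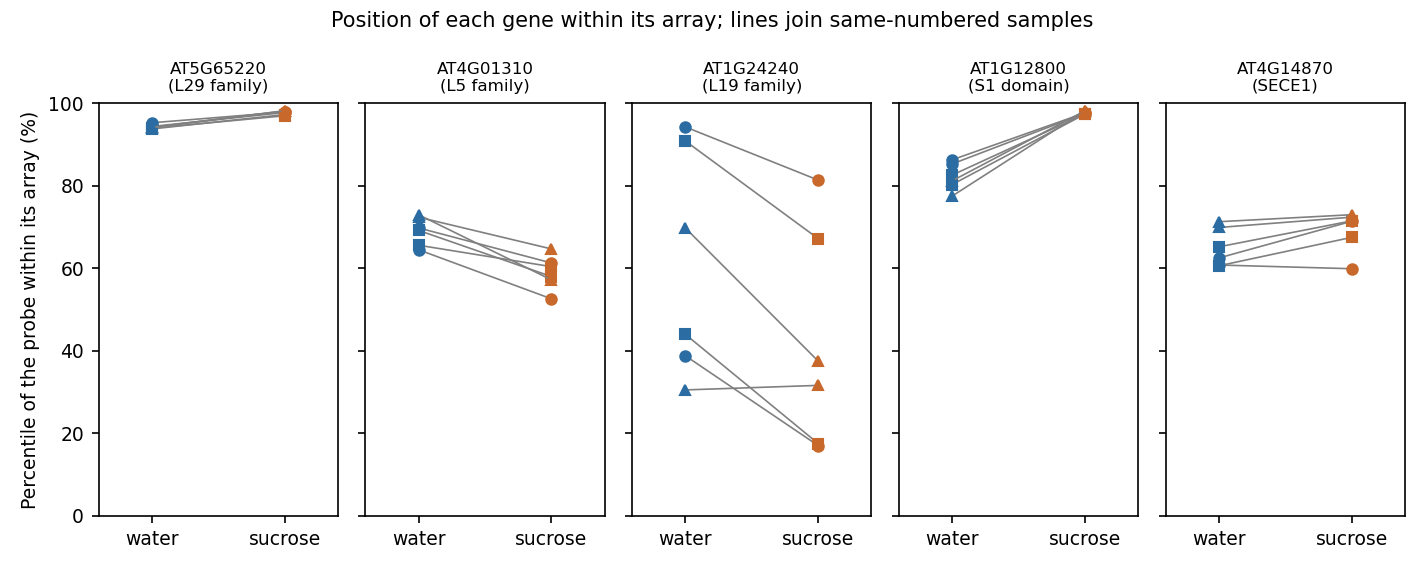
Percentile of each gene's probe among all probes of the same array, in water (blue) and sucrose medium (orange), with lines joining same-numbered samples and symbols as for the sets of 2 samples. AT1G12800 moved up to 97.4 to 98.2 in all sucrose samples, AT4G01310 moved down in 6 of 6 pairs, and AT1G24240 ran from 17.0 to 94.3.

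SECE1, the small membrane subunit of the thylakoid Sec channel, did not pass the test. Its deposited intensities in water were 0.235, 0.244, 0.227, 0.261, 0.341 and 0.364. In sucrose medium they were 0.548, 0.723, 0.657, 0.73, 0.774 and 0.79. The deposited values did not overlap, with a ratio of means of 2.53, close to the shift of the array medians. After normalisation the groups overlapped, with a log2 intensity of -1.27 ± 0.20 in water and -1.07 ± 0.21 in sucrose medium (SD, n = 6 each). The log2 fold change was 0.20 ± 0.12 (SE), with a 95% confidence interval of -0.06 to 0.46 (limma, adjusted p = 0.159), and it was above 0 in 5 of 6 pairs. Its adjusted p was 0.048 when replicate number was a fixed block, but 0.0738 as a random block, 0.327 with averaged sets and 0.334 with the sets as a random block. Without sucrose replicate 1, which was the lowest sucrose sample, the log2 fold change was 0.28 (adjusted p = 0.0357). Without scaling it was 1.35 (adjusted p = 1.21e-06), above the median of 1.09 over all probes. With a straight-line scaling it passed at 0.82 (adjusted p = 0.00115), where the median over all probes tested was 0.28.

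AT1G24240, of the L19 family, varied more between samples of a group than between the groups. Its deposited intensities in water were 0.122, 1.89, 0.144, 1.09, 0.0954 and 0.343 in samples 1 to 6. In sucrose medium they were 0.0689, 0.966, 0.116, 0.66, 0.264 and 0.319. Samples 2 and 4 were the highest in both groups, so the groups overlapped over most of their range. In each of the 6 sets of 2 samples, the even-numbered sample was above the odd-numbered one, although such samples were mostly the closest over all probes. The standard deviation of the samples about their group means was 1.52 on the log2 scale, larger than that of 99.2% of 2805 probes. For the other 4 genes it lay between 0.161 and 0.271, against a median of 0.224 over these probes.

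The log2 fold change of AT1G24240 was -1.32 ± 0.79 (SE), with a 95% confidence interval of -3.04 to 0.40 (limma, adjusted p = 0.161). It was below 0 in 5 of 6 same-numbered pairs, with sucrose sample 5 above water sample 5. Once the replicate number was a block the standard deviation about the fit was 0.526, and the same log2 fold change had an SE of 0.26 (adjusted p = 0.00269). As a random block the number gave an adjusted p of 0.0623, with the 2 samples of each set averaged the adjusted p was 0.0152, and with the sets as a random block it was 0.478. Without scaling the log2 fold change was -0.25 (adjusted p = 0.796, and 0.476 with the block). Between the sets it was -1.69 in samples 1 and 2, -1.69 in samples 3 and 4, and -0.59 in samples 5 and 6.

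**Figure D3:**
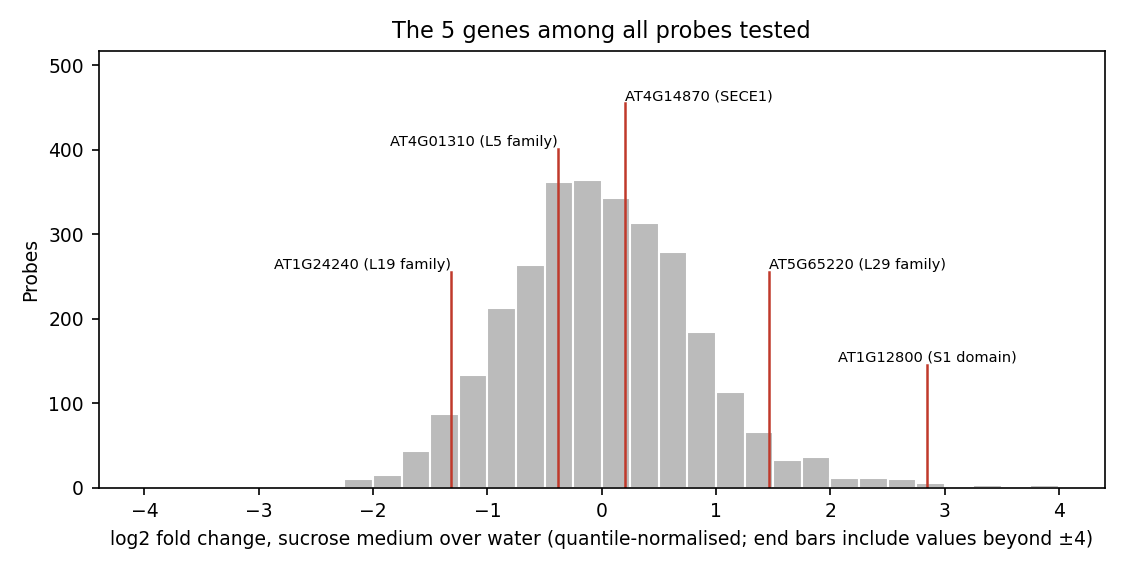
Distribution of the log2 fold change (sucrose medium over water, quantile-normalised) over 2915 probes tested, with red lines at the 5 genes. AT1G12800 at 2.85 lies in the upper tail, with 99.7% of probes below it, while SECE1 at 0.20 and AT4G01310 at -0.38 lie in the bulk.

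The scaling of the arrays decided the size of several of these differences. AT1G12800 passed as higher under all 5 ways of scaling tried, from 1.85 with median centring to 3.32 with the straight line. AT5G65220 passed under 4 of them, at 1.35 to 1.62, and not with median centring. AT1G24240 passed under none of the 4 in which it could be tested without the block. With the straight line it had too few values above 0 to be tested.

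**Figure D4:**
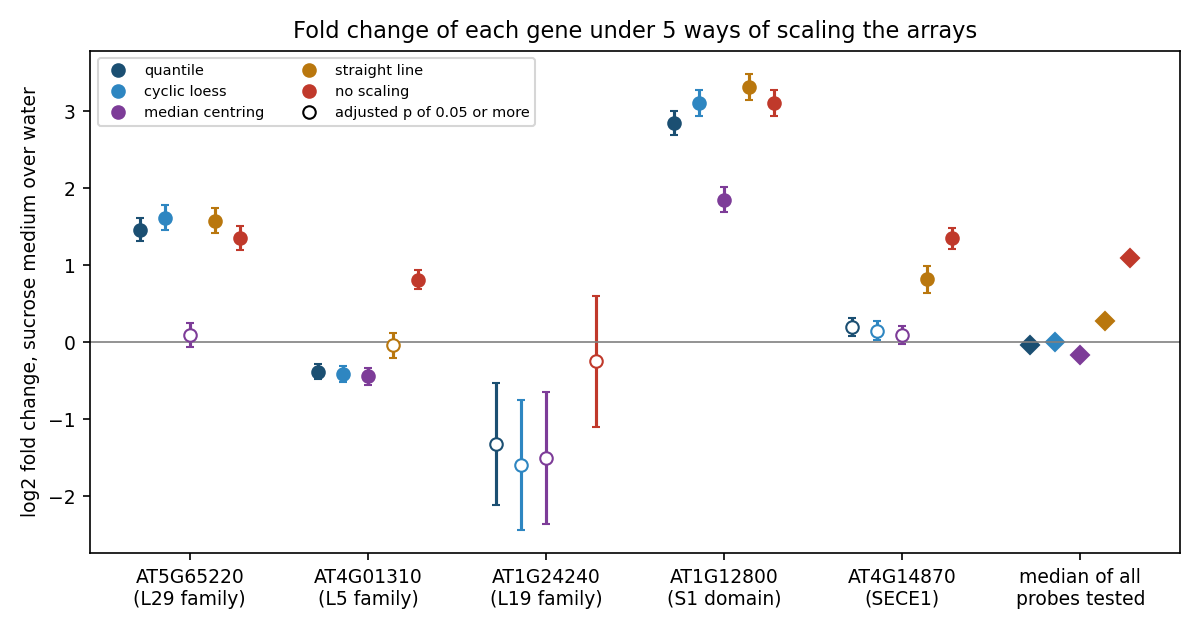
The log2 fold change (sucrose medium over water) of each gene with its SE under 5 ways of scaling the arrays, and the median over all probes tested as diamonds. Filled circles passed at adjusted p under 0.05 (limma): AT1G12800 is filled and between 1.85 and 3.32 throughout, while AT4G01310 ranges from -0.44 to 0.81.

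Because a factor common to an array cancels in the ratio of 2 probes on it, the genes were also compared as log2 ratios of deposited intensities within each array. All 10 pairs were tested with an exact two-sided permutation test over all 924 assignments of samples to groups, whose smallest p is 0.00216, and adjusted by Benjamini-Hochberg over the 10 pairs. Such a ratio shows unequal change only, and any dependence of the scale on brightness stays in it. Scaling did act unequally on bright and dim probes. The log2 fold change without scaling and after quantile normalisation was 1.35 and 1.46 for the bright AT5G65220. For the dimmer SECE1 it was 1.35 and 0.20, and for AT4G01310 0.81 and -0.38. Ratios of a bright to a dim gene are therefore not free of the scaling question. The test takes all samples as separate. Its p-values would be too small and its intervals too narrow if the 2 samples of a set are repeat measurements. In 5 pairs the ratio differed between the groups, and in 4 of these the groups did not overlap.

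AT1G12800 gained on each of the other 4 genes in sucrose medium. The log2 ratio of AT5G65220 to AT1G12800 was 1.75 ± 0.21 in water and -0.01 ± 0.15 in sucrose medium (SD, n = 6 each), a change of -1.75 with a 95% interval of -1.98 to -1.51 (exact p = 0.00216, adjusted p = 0.00541). Against SECE1, AT1G12800 gained 1.76 (1.26 to 2.25, exact p = 0.00216, adjusted p = 0.00541). The ratio of AT4G01310 to AT1G12800 changed by -2.29 (-2.77 to -1.82, exact p = 0.00216, adjusted p = 0.00541). The ratio of AT1G24240 to AT1G12800 changed by -3.35 (-5.41 to -1.35, exact p = 0.00433, adjusted p = 0.00866), with groups that overlapped. Tested on the 6 same-numbered pairs, where the smallest p of an exact sign-flip test is 0.0312, these 4 ratios and that of AT4G01310 to SECE1 all had this p, and an adjusted p of 0.0521.

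AT4G01310 also lost ground to SECE1, with a change of -0.54 (-0.69 to -0.38, exact p = 0.00216, adjusted p = 0.00541), and this was the ratio with the smallest spread, at an SD of 0.15 in water and 0.11 in sucrose medium. The ribosomal pair did not reach the threshold: the ratio of AT5G65220 to AT4G01310 changed by 0.54 (0.07 to 1.01, exact p = 0.0368, adjusted p = 0.0613), and by 1.84 on quantile-normalised values (adjusted p = 0.00309). AT5G65220 and SECE1 had a log2 ratio of 2.82 ± 0.37 in both groups, a change of 0.00 with an interval of -0.47 to 0.48 (exact p = 0.989, adjusted p = 0.989). On quantile-normalised values the same ratio changed by 1.26 (adjusted p = 0.00309), so unequal change of these genes was found after quantile normalisation and not in the deposited values. The other 3 ratios with AT1G24240 had intervals that included 0. On same-numbered pairs the ratio of AT5G65220 to AT1G24240 was higher in sucrose medium in 6 of 6 (exact sign-flip p = 0.0312, adjusted p = 0.0521), the same p as for the 5 called ratios.

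**Figure D5:**
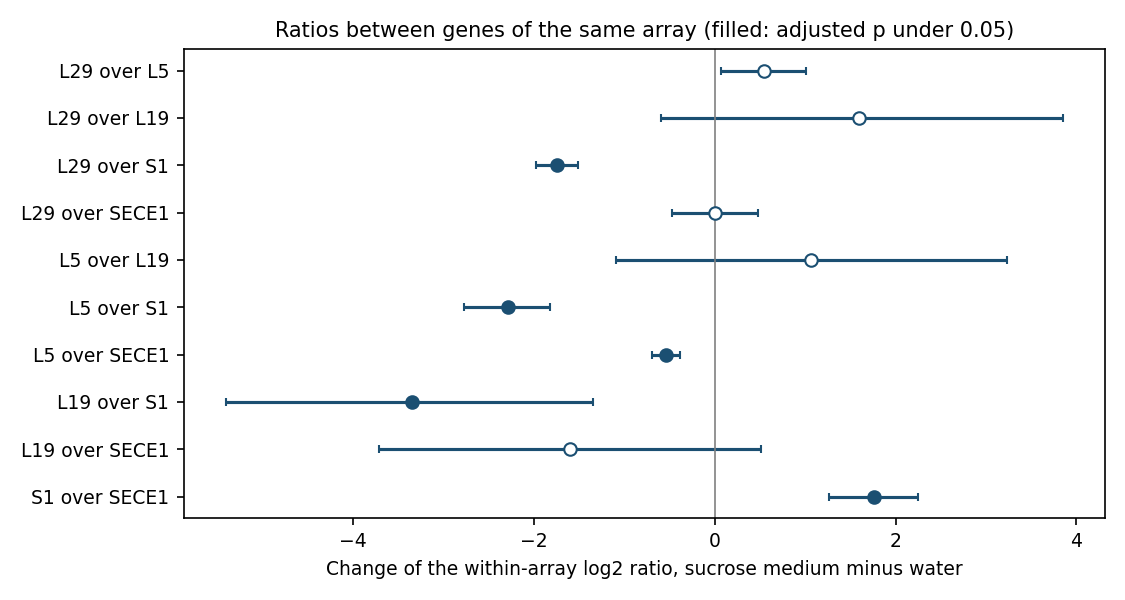
Change of the within-array log2 ratio between 2 genes, sucrose medium minus water, with 95% intervals from the exact permutation test; L29, L5, L19 and S1 stand for AT5G65220, AT4G01310, AT1G24240 and AT1G12800. The 4 ratios with AT1G12800 and the ratio of L5 to SECE1 are filled (adjusted p under 0.05), and L29 over SECE1 lies at 0.00.

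Few other genes of these systems were measured. Of 41 nuclear genes of the plastid ribosome 6 were on a probe naming 1 gene and 4 could be tested, of which 2 were higher and 2 lower, where 31.5% and 32.9% of all probes were. These 4 genes had a median log2 fold change of 0.04 against -0.03 over all probes. Besides AT5G65220 and AT4G01310 these were AT3G13120, which encodes plastid ribosomal protein S10, and AT3G54210, which encodes L17. AT3G13120 was dim, with deposited intensities of 0.0444 to 0.0881 in water, against 0.223 to 0.273 in sucrose medium. Its log2 fold change was 0.47 ± 0.15 (SE; limma, adjusted p = 0.0165), and with averaged sets the same value no longer passed (adjusted p = 0.0561), nor with the sets as a random block (adjusted p = 0.117). Without scaling it was 1.80 (adjusted p = 1.49e-07), and 0.27 with 0.05 added before log2 (adjusted p = 0.0433). AT3G54210 lay at 0.505 to 0.708 in water, against 0.797 to 0.866 in sucrose medium, and its log2 fold change was -0.44 ± 0.07 (SE; limma, adjusted p = 0.000111), or 0.47 without scaling and 0.12 with the straight line. Like AT4G01310, it was lower in 6 of 6 pairs after normalisation while its deposited values were higher.

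The other 2 genes of the plastid ribosome on such probes were at or near the bottom of the scale. AT1G64510, for ribosomal protein S6, was listed at 0 in all 12 samples. AT1G29070, for L34, was listed at 0 in all 6 water samples and in sucrose samples 1 and 2, and at 0.113, 0.144, 0.0439 and 0.103 in sucrose samples 3 to 6. Neither could be tested.

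Of 14 genes of the plastid Sec, SRP and Tat translocases 2 were measured, SECE1 among them. The other passed, as lower, where 64.4% of all probes passed, 32.9% as lower. That was AT4G38490, the SECE2 subunit of the second plastid Sec system, of the envelope, at a log2 fold change of -1.48 with an SE of 0.45 (limma, adjusted p = 0.0146) over the 5 samples a group that had a value. It was listed at 0 in sample 1 of both groups and was highest in sample 2 of both, at 1.24 in water and 0.97 in sucrose medium. Its call was lost without scaling (-0.41, adjusted p = 0.426), with 0.05 added before log2 (adjusted p = 0.301) and with averaged sets (adjusted p = 0.132). Of 8 proteins with S1 domains AT1G12800 alone had a probe of its own. A further 1, AT3G23700, was only on the probe shared with AT1G12800, whose log2 fold change was 0.38. Of 10 plastid translation factors 0 had a probe of their own, and 3 were on probes shared with other genes.

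The labels name no tissue, and the array allowed little check of it. Of 10 leaf marker genes 1 was on a probe naming 1 gene, LHB1B2 (AT2G34420), a light-harvesting protein of photosystem II, at deposited intensities of 9.79 to 16.5 in water, against 6.47 to 10.9 in sucrose medium. Its log2 fold change was -0.29 ± 0.14 (SE; limma, adjusted p = 0.098), and it was below 0 in 6 of 6 pairs. It passed as lower with replicate number as a fixed or random block (adjusted p = 0.007 and 0.0319), without scaling (-0.54, adjusted p = 0.00828), with values of 100 as missing (-0.44, adjusted p = 0.0268) and with median centring (-1.80, adjusted p = 2.28e-06). By limma it did not pass with cyclic loess (-0.09, adjusted p = 0.62) or the straight line (-0.26, adjusted p = 0.199). Nor did it with 0.05 added before log2 (adjusted p = 0.102), averaged sets (adjusted p = 0.263) or the sets as a random block (adjusted p = 0.201). Besides the fits that left out a sample, it passed in 7 alternatives and not in 7. Of 6 root marker genes 0 were measured. Whether the tissue makeup of the samples differed was not tested.

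The probes most like each gene over the 12 samples were found as the smallest root mean square difference of log2 intensity, each probe taken relative to its own mean in water, among 563 other probes that name 1 gene. For AT1G12800 they were AT-HF (AT4G26900), an enzyme of histidine synthesis, AT2G36480 and AT5G40030, at differences of 0.306, 0.423 and 0.452 against a median of 2.01 over all compared. For AT5G65220 they were AT5G10920, AT4G13680 and AT5G65360, a histone H3 gene, at 0.227, 0.26 and 0.268 against a median of 1.07. For AT4G01310 they were AT4G29890, AGL26 (AT5G26880) and AT2G28540, at 0.121, 0.143 and 0.149 against 0.556. For SECE1 they were AT3G15900, RALFL32 (AT4G14010) and AT4G04370, at 0.131, 0.16 and 0.179 against 0.532. AT1G24240 had no close match: its nearest were AT3G51510, AT4G01810 and AT1G28150 at 1.26, 1.31 and 1.31, against a median of 1.74. Taken relative to the mean in water, the measure largely picks probes with a like fold change. The nearest probes of AT1G12800, AT5G65220, AT4G01310 and SECE1 had log2 fold changes of 2.79, 1.65, -0.32 and 0.13. None of the 5 genes was among the nearest 3 of another, which adds little to their unlike fold changes.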

How the data were processed

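The authors' deposited table holds 1 intensity for each probe in each of 12 arrays (6 water, 6 sucrose medium). The steps that gave these intensities are not stated in the labels, and the number of arrays limits the precision. Zeros counted as missing. Intensities were log2-transformed, quantile normalised and fitted in R 4.3.3 with limma 3.58.1 (lmFit, then eBayes; two-sided, without a block). The fit held 2915 probes, each above 0 in at least 4 water samples and at least 4 sucrose samples, and p-values were adjusted by Benjamini-Hochberg over all of them. Gene names follow the platform annotation, which may be outdated, matched through gene identifiers to TAIR10.1. Within-array ratios used Python 3.11.15 and numpy 2.4.6, and figures matplotlib 3.10.9. The fits were tested on simulated data with independent samples, few changed probes and no shift between the arrays of the groups. That test does not cover the shift of the array medians or the likeness of sets seen here.

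The 5 genes, the gene lists and the tests were chosen with earlier results of these data known. Named were the 5 genes, the list genes on tested probes naming 1 gene, and the 3 most alike probes per gene. A count of all ribosomal protein genes was not made, because the reference tables hold no gene descriptions. Genes listed at 0, and the 1 leaf marker, were named after their values were seen.

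Same-numbered samples of the groups deviated together, with correlations of 0.28 to 0.45 in all 6 pairs (2805 probes, across probes), against 0.162 to 0.282 for other numbers of the same set and -0.29 to 0.045 for other sets. The labels do not give the meaning of the numbers. The values reported first come from fits and permutations without pairing, and fits with the number as a block stand beside them where a call changed. Alternatives covered scaling, zeros, filters, blocks, averaged sets and each sample left out.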

Additional observations from a re-analysis of the deposited data

How the results depend on the processing

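The call of AT1G12800 held in every setting. Those of AT5G65220 and AT4G01310 changed with the scaling only, and AT4G01310 alone of the 5 genes changed sign. The call of SECE1 changed with the scaling, with the fixed block and without sucrose replicate 1. That of AT1G24240 changed with the fixed block and with averaged sets, and not with the scaling alone. Without scaling 2154 probes passed as higher and 226 as lower, 4 of the 5 genes as higher and 0 as lower, with AT4G01310 at 0.81, SECE1 at 1.35 and AT3G54210 at 0.47. With the replicate number as a block and no scaling the counts were 2225 and 253, and 4 and 0, at the same fold changes. With median centring 1 of the 5 passed as higher and 1 as lower, against 806 and 1210 of 2915 probes, and AT5G65220 was at 0.10. With median centring and the block 1 passed as higher and 2 as lower, with AT5G65220 at 0.10 and AT1G24240 at -1.50 (limma, adjusted p = 0.00342). With the straight line onto the mean water array 2171 probes could be tested, and 954 passed as higher and 494 as lower. AT1G24240 could not be tested there. Of the other genes 3 passed as higher, with SECE1 at 0.82 (limma, adjusted p = 0.00115), and 0 as lower, with AT4G01310 at -0.039. AT3G54210 was at 0.12 there. Called probes were higher in 48.9% with quantile normalisation, 90.5% without scaling, 40.0% with median centring and 65.9% with the straight line.

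With the replicate number as a block, and no change of scaling, 2 of the 5 genes passed as lower: AT4G01310 and AT1G24240, at -1.32 (limma, adjusted p = 0.00269). SECE1 at 0.20 passed as higher there (adjusted p = 0.048), so that 5 of 5 passed against 69.4% of probes (987 higher and 1037 lower). The block changed no other call of the 5 genes. With averaged sets 2 also passed as lower, AT1G24240 at -1.32 among them, and 2 as higher, against 46.7% of probes. With the sets as a random block, added after seeing the data, AT4G01310 stayed past the threshold (adjusted p = 0.0486), and AT1G24240 did not pass (adjusted p = 0.478), where 51.5% of probes did.

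Of the within-array ratios, quantile-normalised values gave changes of 1.84, 2.78 and 1.26 for AT5G65220 over AT4G01310, AT1G24240 and SECE1, all past the threshold, and 0.05 added before log2 gave 0.61 for the first. On quantile-normalised values the 5 called ratios passed too, but their sizes moved. Over AT1G12800 the change was -1.39 for AT5G65220, -3.23 for AT4G01310 and -4.175 for AT1G24240. Over SECE1 it was -0.58 for AT4G01310 and 2.65 for AT1G12800. By the sign-flip test on pairs (replicate block) the 5 called ratios, at -1.75, -2.29, -0.54, -3.35 and 1.76, each had an adjusted p of 0.0521. With averaged sets 3 against 3 cannot reach the threshold, and no test was made.

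Leaving out each sample gave 1794 to 1845 called probes (864 to 903 higher, 912 to 965 lower), with 2 to 3 of the 5 genes higher and 1 lower. Log2 fold changes ran from 1.40 to 1.57 for AT5G65220, from -0.43 to -0.34 for AT4G01310, from -1.73 to -0.89 for AT1G24240, from 2.75 to 2.96 for AT1G12800, from 0.16 to 0.28 for SECE1. Ratios of AT5G65220 ran from 0.45 to 0.66 over AT4G01310 (past the threshold without water replicate 1 or sucrose replicate 4), from 1.10 to 1.96 over AT1G24240, from -1.82 to -1.69 over AT1G12800 and from -0.093 to 0.11 over SECE1. Ratios of AT4G01310 ran from 0.55 to 1.47 over AT1G24240, from -2.40 to -2.18 over AT1G12800 and from -0.57 to -0.50 over SECE1, those of AT1G24240 from -3.72 to -2.93 over AT1G12800 and from -2.01 to -1.06 over SECE1, and that of AT1G12800 from 1.63 to 1.87 over SECE1.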

Other observations

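The annotation lists AT1G12800 and AT1G24240 on 1 further probe each, shared with other genes, so that the signal cannot be assigned to a single gene. The probe listed for both AT1G12800 and AT3G23700 had deposited intensities of 0.197 to 0.315 in the water samples, against 0.664 to 0.759 in the sucrose samples, without overlap. Its log2 fold change after quantile normalisation was 0.38 ± 0.09 (SE; limma, adjusted p = 0.00272), against 2.85 for the probe naming AT1G12800 alone. The probe listed for AT1G24240, AT5G11750 and AT4G11630 ran from 0.0901 to 0.155 in the water samples and from 0.156 to 0.198 in the sucrose samples, and its log2 fold change was -0.66 ± 0.13 (SE; limma, adjusted p = 0.000695). That shared probe did not show the spread of the AT1G24240 probe: its SD was 0.28 in water and 0.15 in sucrose medium on the log2 scale, against 1.53 and 1.51.

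In the 5 genes and the other list genes, 16 combinations of gene and group with 6 values were checked for a sample far from the rest by Dixon's criterion, and 0 were found. The spread of AT1G24240 comes from several high and several low samples, for which that criterion is not made.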
